A study of Mus musculus with 8 samples.

Results

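Genes of the endoplasmic reticulum (ER) stress response and of the integrated stress response were described in CD8+ T cells driven to dysfunction in vitro. The members were the 37 genes on a list of both responses, matched by symbol, of the 24303 genes in the expression table. They were treated by role as 15 chaperones and folding enzymes, 7 genes of ER-associated degradation, 7 stress sensors and transcription factors, and 8 targets of the transcription factor Atf4.

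The cells were P14 CD8+ T cells from mouse spleen, whose transgenic receptor recognizes GP33, a peptide of LCMV. All 4 conditions began with naive cells plated on anti-CD3 and anti-CD28 for 2 days. Acute-2d cells then had no peptide up to day 19, and Acute-7d cells had repeated GP33 up to day 7 and none from there to day 19. TDysf cells had repeated GP33 up to day 19 with TGF-β1 from day 7, and Effector cells were collected on day 7, with no peptide schedule of their own in the labels. The study takes its day 7 cells from the same stimulation model, and a figure caption names day 7 cells Effector 7d-stim, so stimulated up to collection. RNA-Seq was made from sorted viable cells, with 2 libraries per condition. Reads counted in genes were estimated at between 19382147 and 24856224 per library. These numbers were inferred from the normalized counts and are not a reported depth. The model is a culture without a host or a tumor, and TDysf differs from Acute-7d in peptide, in TGF-β1 and in rest together, so their parts cannot be told apart. The study calls the libraries of a condition biological replicates, but neither it nor the labels say whether these were separate mice or separate cultures, and p-values measure the spread between these libraries.

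Proteins that enter the ER are folded by chaperones such as BiP and by disulfide isomerases, and those that fail to fold are moved out and degraded. When unfolded proteins build up, the sensors Ire1 (gene *Ern1*), Perk (*Eif2ak3*) and Atf6 start the unfolded protein response, in which Xbp1 and Atf6 raise chaperone and degradation genes. Perk also phosphorylates eIF2α, which slows translation and favors Atf4. Other kinases reach eIF2α and Atf4 without ER stress, for example when amino acids run short, and this shared arm is the integrated stress response. T cells expand the ER when they are activated and secrete cytokines and granzymes.

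The promoters of the members were searched by role for known motifs of both responses, as a description without a test. Members and motifs were both chosen as known parts of these responses, so matches between them are not an independent result. RefSeq windows for GRCm38.p6, from 250 bases before to 50 bases after the gene start, were found for 33 of the 37 members. The ER stress element (CCAAT, 9 bases of any kind, then CCACG, on either strand) was found in 9 of them, against 0.137% of 27025 genes with a window. It was in 7 of 13 chaperones and in 2 of 6 degradation genes, but in 0 of 6 sensors and factors and in 0 of 8 Atf4 targets. The stretches that hold it are shown because, among the members, it was found only in chaperones and degradation genes. The element is in capitals, and it reads in the reverse direction where the capitals begin with CGTGG.
Hspa5 (chr2:34772017-34772051, plus strand): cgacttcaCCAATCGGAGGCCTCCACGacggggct
Hsp90b1 (chr10:86705630-86705664, minus strand): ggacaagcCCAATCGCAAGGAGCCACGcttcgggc
Hsp90b1 (chr10:86705525-86705559, minus strand): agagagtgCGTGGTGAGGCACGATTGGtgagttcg
Calr (chr8:84847067-84847101, minus strand): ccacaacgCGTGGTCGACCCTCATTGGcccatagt
Canx (chr11:50325792-50325826, minus strand): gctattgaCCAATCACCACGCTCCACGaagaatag
Pdia6 (chr12:17266483-17266517, plus strand): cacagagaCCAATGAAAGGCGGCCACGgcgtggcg
Dnajc3 (chr14:118937819-118937853, plus strand): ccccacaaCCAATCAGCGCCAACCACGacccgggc
Creld2 (chr15:88819512-88819546, plus strand): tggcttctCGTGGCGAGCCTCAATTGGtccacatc
Syvn1 (chr19:6046524-6046558, plus strand): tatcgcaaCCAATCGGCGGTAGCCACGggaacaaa
Derl3 (chr10:75893234-75893268, plus strand): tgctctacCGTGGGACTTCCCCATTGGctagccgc

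A second form of the element (ATTGG, 1 base, CCACG) was in *Dnajb11* and *Herpud1*, against 0.0444% of genes. The core of the C/EBP-ATF response element, TGATGNAA, which Atf4 is known to bind with a C/EBP partner, was in 3 of 8 Atf4 targets (*Asns*, *Chac1* and *Trib3*) and in *Atf3* and *Herpud1*, against 4.51% of genes. TGACGTGG, a sequence bound by Atf6 and Xbp1, was in 0 of 33 members, against 0.714% of genes. It is too rare for 0 of 33 to set the members apart from other genes. *Herpud1* was the member with both a second-form element and the C/EBP-ATF core, which are shown here with the core of *Asns*, the matched letters in capitals.
Herpud1, second form (chr8:94386369-94386395, plus strand): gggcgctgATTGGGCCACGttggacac
Herpud1, C/EBP-ATF core (chr8:94386309-94386332, plus strand): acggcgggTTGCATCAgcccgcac
Asns, C/EBP-ATF core (chr6:7693217-7693240, minus strand): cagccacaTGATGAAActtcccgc

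**Figure D1:**
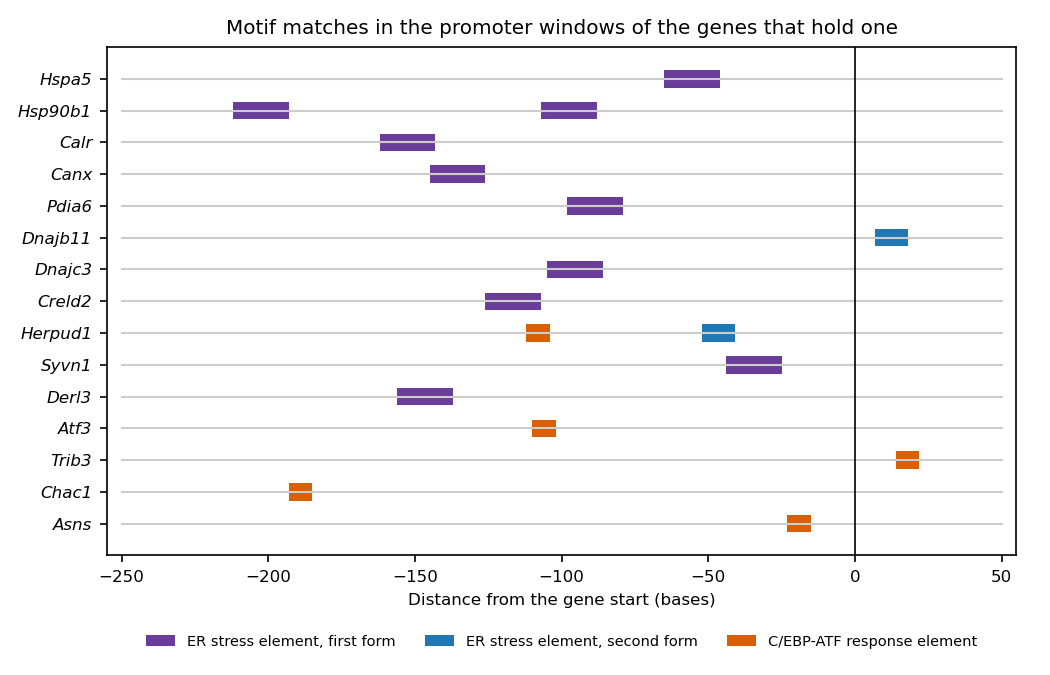
Positions of motif matches in the promoter windows of the 15 members that hold one, as distance in bases from the gene start. Purple bars mark the first form of the ER stress element, blue bars the second form and orange bars the C/EBP-ATF core. The purple bars lie before the gene start in chaperones and in the degradation genes *Syvn1* and *Derl3*.

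*Sdf2l1* and *Dnajb9*, which had the largest changes among the chaperones, held none of the 4 motifs in full. The part CCACG, chosen after the values were seen, was on either strand in 27 of 33 members (81.8%) against 35.5% of genes. CCACG belongs to both forms of the ER stress element, so members with a full element hold it by definition. The 250 bases before the start of *Sdf2l1* held it 3 times, in capitals and in reverse, and they are printed because no other chaperone rose as far.
Sdf2l1 (chr16:17132384-17132633, minus strand): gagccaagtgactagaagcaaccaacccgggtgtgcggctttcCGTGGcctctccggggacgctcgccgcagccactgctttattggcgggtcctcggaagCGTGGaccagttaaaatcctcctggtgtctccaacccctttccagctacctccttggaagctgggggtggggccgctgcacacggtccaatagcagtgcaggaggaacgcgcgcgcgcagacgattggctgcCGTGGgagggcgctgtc

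Levels are normalized counts: estimated reads per gene divided by a size factor per library. Differences are log2 fold changes of (normalized count + 1) with their standard error (SE), tested with limma's moderated test over all genes, and every rise, fall or difference is on this log2 scale. A gene was called when the fold was at least 2 and the Benjamini-Hochberg adjusted p was under 0.05. Of the 37 members, 12 (32.4%) were called in at least 1 of 6 comparisons and 25 in none, beside 18.6% of all genes and 27.4% of the genes with a mean of at least 50 called in at least 1. All 37 had every library above the 3-read floor of 2.59 to 3.35 normalized counts, and 36 reached 50 in some library. A mean of at least 50 was also held by 36 members. Shares over all genes count many genes below that mean, so they are not matched for level. *Derl3*, a degradation gene of secretory cells, stayed between 5.48 and 27.

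**Figure D2:**
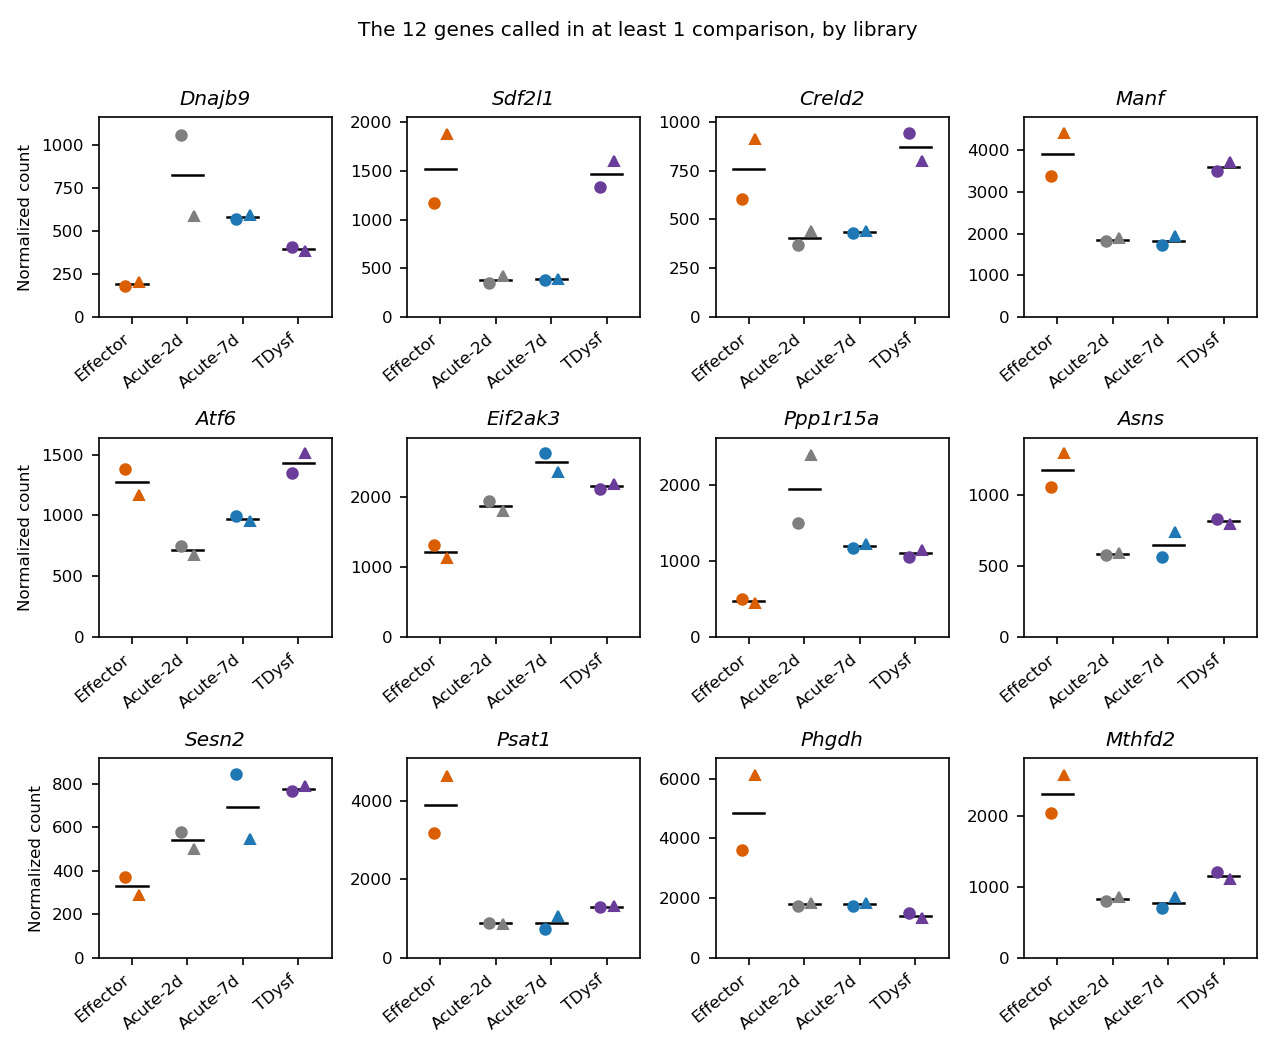
Normalized counts (linear axes from 0) of the 12 called members in each of the 8 libraries. Circles are replicate 1, triangles replicate 2 and black lines the mean of the 2. *Sdf2l1*, *Manf* and *Creld2* are high in Effector and TDysf, while *Psat1*, *Phgdh* and *Mthfd2* are highest in Effector.

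The samples were first checked against markers. The 6 T cell genes summed to between 54830 and 70140 in Effector, Acute-2d and Acute-7d and to between 118300 and 122600 in TDysf. The CD4 T cell list (3 genes) summed to between 1043 and 1629 over all libraries, nearly all of it *Zbtb7b*, at 1041 to 1625. *Cd4* and *Cd40lg* each stayed at or under 13. In bulk RNA, fewer cells of a type and less RNA per cell cannot be told apart. Of 7 plasma cell markers 6 were in the table, and their sum was 8362 to 8850 in TDysf, 5699 to 6130 in Effector and 2408 to 3754 in the acute conditions, most of it *Ighm*. *Igha* was 1086 and 1154 in TDysf and at most 9 elsewhere, and *Jchain* was 236 and 275 against at most 7.4. *Sdc1*, a surface marker of plasma cells, was 113 and 148 in TDysf and at most 19.1 elsewhere. *Mzb1*, a defining ER gene of plasma cells, was between 0 and 4 in all libraries, and *Igkc* was between 20 and 40. Of the B cell markers, *Cd79b* was 136 and 115 in TDysf, 138 and 83.3 in Effector, 72.7 and 83.1 in Acute-2d, and 30.1 and 38.4 in Acute-7d. *Cd79a* was at most 21.4 in any library, *Pax5* at most 17.4 and *Ms4a1* at most 13.04. The dendritic list (4 of 5 in the table) summed to 3532 to 3730 in TDysf and 410 to 1463 elsewhere, nearly all of the TDysf sum being *Itgax*, with *Siglech* at or under 3. The NK list summed to between 8149 and 15390, with *Ncr1* at or under 105, the myeloid list to between 271 and 667, and 3 of 4 erythroid genes to between 21 and 43. The part of these markers in the results was not tested.

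In TDysf cells the chaperones were, on balance, above their level in rested Acute-7d cells, and *Sdf2l1* was the member called. *Sdf2l1* encodes an ER protein that works with BiP and its J-domain partners. Its normalized count was 1332 and 1602 in TDysf, 382 and 388 in Acute-7d, 344 and 417 in Acute-2d, and 1169.7 and 1877 in Effector. Effector and TDysf were above both rested conditions without overlap, and TDysf lay inside the range of Effector. It rose 3.79-fold, or by 1.92 ± 0.25 log2 (SE, limma adjusted p = 0.018), from Acute-7d to TDysf. Against Acute-2d the log2 fold change was 1.94 (limma adjusted p = 0.014). Between TDysf and Effector the difference was -0.02, with a 95% interval of -0.67 to 0.63. Leaving out any of the 4 libraries of TDysf and Acute-7d ended the first call, with log2 fold changes between 1.79 and 2.06 over all alternatives and an adjusted p of at most 0.097.

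This was 1 of 37 members higher (background 2.54% of all genes) and 0 lower (background 3.03%). As 2.7% of members, against 8.01% of the 12028 genes with a mean of at least 50, the calls did not exceed the background. Over all genes, 9.21% had an adjusted p under 0.05 at any fold, a share not matched for level. Of the 37 members 5 did, all higher. Apart from *Sdf2l1* they were *Dnajb11*, an ER J-domain protein (log2 fold change 0.85 ± 0.14, limma adjusted p = 0.029), *Manf*, a stress-induced secreted protein (0.98 ± 0.14, limma adjusted p = 0.024), *Atf6* and *Ern1*.

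The median of the chaperones' log2 fold changes between TDysf and Acute-7d was 0.53, with 14 of 15 above 0, beside 0.02 over all genes whose mean was at least 50. Both TDysf libraries were above both Acute-7d libraries in 14 of 15 chaperones, against 38.7% of those genes. Such counts are not 15 separate observations, since the chaperones can differ together between libraries of 1 condition. Replicate 2 of Effector was above replicate 1 in 15 of 15, with a median log2 ratio of 0.57. In TDysf and Acute-7d the same median was 0.028 and 0.082. *Hspa5*, which encodes BiP, was 14672 and 15218 in TDysf and 11394 and 10706 in Acute-7d, which gives a log2 fold change of 0.44 ± 0.24 (limma adjusted p = 0.33). *Calr*, a lectin chaperone of glycoproteins, was at 0.61 ± 0.21 (limma adjusted p = 0.16). The other lectin chaperone (*Canx*), the disulfide isomerases (*Pdia3*, *Pdia4*, *Pdia6* and *P4hb*), *Hsp90b1* and *Hyou1* of the Hsp90 and Hsp70 families and the J-domain protein *Dnajc3* lay between 0.14 and 0.62, none with an adjusted p under 0.05. *Dnajb9*, a BiP cochaperone, was the one below 0, at -0.56 ± 0.29 (limma adjusted p = 0.30). With libraries rescaled to equal 75th percentiles the chaperone median was 0.43, still with 14 of 15 above 0.

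Against Acute-2d, TDysf had 3 members called higher (background 3.14%) and 0 lower (background 4.21%), and 8.11% of members stood beside 10.5% of genes with a mean of at least 50. *Creld2*, an ER disulfide isomerase, was 946 and 799 in TDysf, 368 and 438 in Acute-2d, 429.5 and 441 in Acute-7d, and 604 and 912 in Effector. It rose by 1.11 ± 0.22 log2 (limma adjusted p = 0.042) from Acute-2d, a call that ended under 10 of 19 alternatives. *Atf6* encodes an ER membrane protein whose cut form is a transcription factor for chaperones. Its normalized count was 1352 and 1516 in TDysf, 1384 and 1166 in Effector, 994 and 950.2 in Acute-7d, and 752 and 679 in Acute-2d. It rose by 1.0 ± 0.11 log2 from Acute-2d (limma adjusted p = 0.010), at the 2-fold limit, so that rescaling to equal 75th percentiles put it at 0.88. The call was also lost without Acute-2d replicate 2 and without TDysf replicate 2. At any fold, 7 of 37 members had an adjusted p under 0.05, against 11.9% of all genes, a share not matched for level. Both TDysf libraries were above both Acute-2d libraries in 13 of 15 chaperones, against 37.9% of genes with a mean of at least 50.

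**Figure D3:**
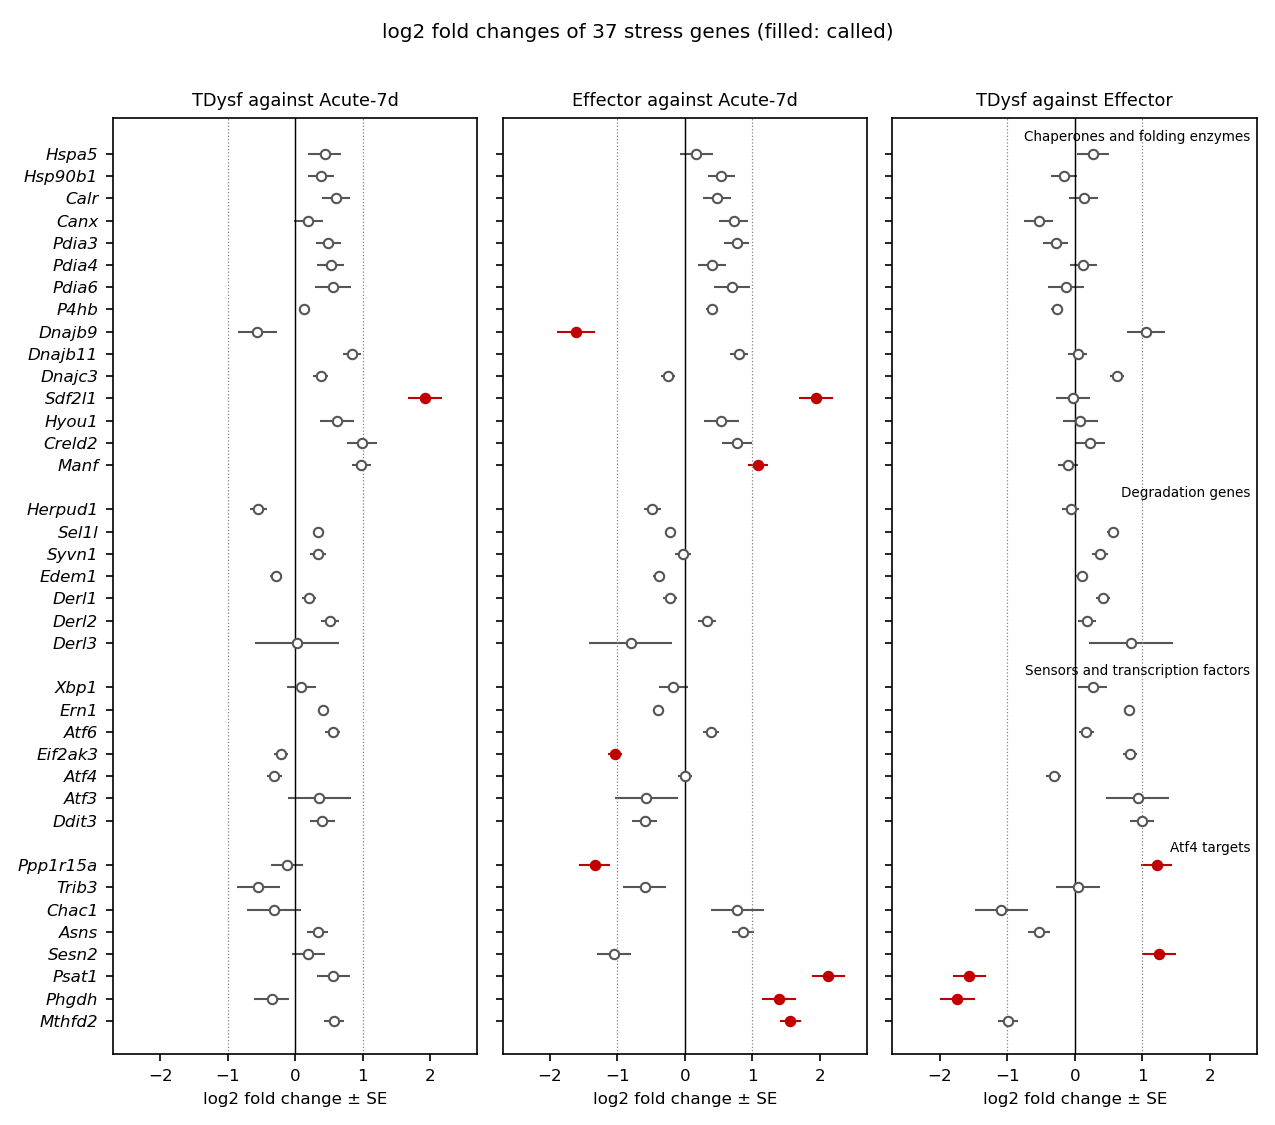
log2 fold changes ± SE of the 37 members, grouped by role, in 3 comparisons. Filled red points were called, open points were not, and dotted lines mark a fold of 2. The first comparison has 1 red point (*Sdf2l1*), the second 8 and the third 4, all 4 Atf4 targets.

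Effector cells, collected on day 7, had the most members called. Against Acute-7d, 5 were higher (background 4.18%) and 3 lower (background 3.88%), and against Acute-2d 6 were higher (background 4.31%) and 2 lower (background 4.48%). Each total, 8 or 21.6% of members, stood beside 12.6% and 13.8% of genes with a mean of at least 50. At any fold 12 of 37 members had an adjusted p under 0.05 in each, against 14.9% and 15.7% of all genes. These 2 shares were not matched for level. Against Acute-7d, limma gave 22 members an unadjusted p under 0.05, beside 48.2% of genes with a mean of at least 50. The comparisons against Acute-7d and Acute-2d share the Effector libraries, so they are given side by side and are not separate evidence.

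Among the chaperones, *Sdf2l1* and *Manf* rose in Effector and *Dnajb9* fell. *Manf* was 3376 and 4428 in Effector, 1724 and 1941 in Acute-7d, 1819 and 1890.0 in Acute-2d, and 3504 and 3716 in TDysf. It rose by 1.08 ± 0.14 log2 from Acute-7d (limma adjusted p = 0.019) and by 1.06 from Acute-2d (limma adjusted p = 0.017). Its exons overlap 166 bases of an antisense gene and 146 of *Dcaf1* on the other strand, and the strand setting of the counting is not given in the sources used here. *Dnajb9*, a known Xbp1 target, was 178 and 202 in Effector, 570.1 and 595 in Acute-7d, 1062 and 585 in Acute-2d, and 406 and 384 in TDysf. The Effector libraries were the lowest, and the Acute-2d libraries were far apart from each other. *Dnajb9* fell by 1.61 on the log2 scale from Acute-7d (limma adjusted p = 0.030) and by 2.05 from Acute-2d (limma adjusted p = 0.018). The median of the 14 other chaperones was 0.62 against Acute-7d and 0.68 against Acute-2d, with 13 of 14 above 0 in each. *Dnajb11* (0.81 and 0.94, limma adjusted p = 0.027 and 0.019) was under 2-fold in both comparisons.

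The 2 Effector libraries differed in the chaperones. Replicate 2 was above replicate 1 in 15 of 15, with a median log2 ratio of 0.57, whereas over all genes whose mean was at least 50 it was above in 56.2%, with a median of 0.064. *Hspa5* was 9941 and 15559.6, *Hsp90b1* (the ER form of Hsp90) 9611 and 14276, and *Hyou1*, a large BiP relative, 2389 and 4041. The replicates of TDysf differed by a median log2 ratio of 0.028 in the same genes. Both Effector libraries were still above both Acute-7d libraries in 12 of 15 chaperones, against 37.8% of genes, and above both Acute-2d libraries in 11 of 15, against 37.2%. Without Effector replicate 1 the members called rose to 12 in each comparison, and without replicate 2 they were 4.

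Of the degradation genes, 0 of 7 were called in any of the 6 comparisons. Against Acute-7d their median was -0.22 in Effector with 1 of 7 above 0, and 0.20 in TDysf with 5 of 7 above 0. limma gave 2 of them an unadjusted p under 0.05 in Effector, beside 48.2% of genes with a mean of at least 50, and 5 in TDysf, beside 39.4%. In TDysf, 3 of these 5 were above Acute-7d (*Sel1l*, *Syvn1* and *Derl2*) and 2 below (*Herpud1* and *Edem1*). *Herpud1*, which recruits the degradation complex, was 1199 and 1360.2 in TDysf and 1825 and 1897 in Acute-7d, which gives a log2 fold change of -0.54 ± 0.12 (limma adjusted p = 0.065). *Sel1l*, the adaptor of the ubiquitin ligase Hrd1 (gene *Syvn1*), was 2416 and 2600.4 in TDysf, 1583 and 1819.8 in Effector, 2021 and 1926 in Acute-7d, and 1714 and 1786 in Acute-2d. Both TDysf libraries were above all others, by 0.56 ± 0.08 over Effector (limma adjusted p = 0.018) and 0.52 over Acute-2d (limma adjusted p = 0.025), both under 2-fold, while the 0.35 over Acute-7d did not pass the test (limma adjusted p = 0.077). *Edem1*, which marks glycoproteins for disposal, was between 4914 and 5752 in Effector and TDysf and between 6714 and 7342 in the rested conditions. *Syvn1* itself was 1064 and 1231 in TDysf and between 803 and 978 elsewhere. *Derl1* and *Derl2*, of the channel complex, had log2 fold changes between -0.29 and 0.52 over the comparisons of TDysf or Effector with others.

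**Figure D4:**
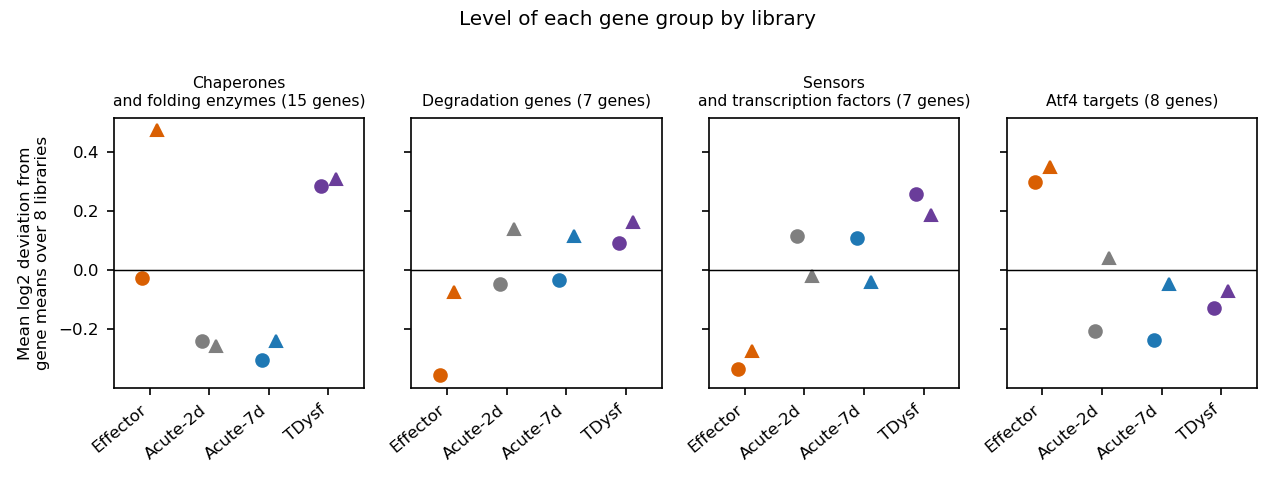
Mean log2 deviation of each role group from its genes' means over the 8 libraries, by library (circles replicate 1, triangles replicate 2). The chaperones lie at 0.28 and 0.31 in TDysf and between -0.31 and -0.24 in the rested conditions, with the Effector libraries at -0.03 and 0.47. The sensors and factors are lowest in Effector, at -0.33 and -0.27, and the Atf4 targets highest there, at 0.30 and 0.35.

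Among the sensors, the 2 kinases were lowest in Effector, though *Ern1* was only 0.13 log2 below Acute-2d there (limma adjusted p = 0.32). *Eif2ak3*, which encodes Perk, was 1315 and 1122 in Effector, 2626 and 2355 in Acute-7d, 1946 and 1794 in Acute-2d, and 2117 and 2185 in TDysf. It fell by 1.03 on the log2 scale from Acute-7d to Effector (limma adjusted p = 0.013), a call lost without Effector replicate 2 (log2 fold change -0.92 to -1.17 over all alternatives) or without Acute-7d replicate 1. *Eif2ak3* exons share 485 bases with a gene on the other strand. *Ern1*, which encodes Ire1, was 609 and 649 in TDysf, 473 and 474 in Acute-7d, 420.2 and 372 in Acute-2d, and 364 and 357 in Effector. TDysf was above all others without overlap, by 0.41, 0.67 and 0.80 (limma adjusted p = 0.040, 0.010 and 0.0072) over Acute-7d, Acute-2d and Effector, each under 2-fold.

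The transcription factors *Xbp1*, *Atf4*, *Ddit3* and *Atf3* were called in none of the comparisons. *Xbp1*, whose mRNA Ire1 splices and whose gene-level count does not show splicing, was 2072 and 2068 in TDysf and 2108 and 1786 in Acute-7d, which gives a log2 fold change of 0.09 ± 0.22. *Atf4*, which is controlled largely through translation, was 4088 and 4276 in TDysf, the lowest of the 4 conditions, against 5430.1 and 4939.8 in Acute-7d, which gives a log2 fold change of -0.31 ± 0.11 (limma adjusted p = 0.16). *Ddit3*, which encodes the proapoptotic factor Chop, was 503 and 429 in TDysf, 334 and 369 in Acute-7d, 285 and 392 in Acute-2d, and 245 and 219.7 in Effector. It was 0.998 ± 0.18 log2 higher in TDysf than in Effector (limma adjusted p = 0.029), just under 2-fold. *Atf3*, a stress-induced repressor, was 692 and 349.8 in Acute-2d and between 106 and 315 elsewhere, and its replicates were too far apart for a call, with SE 0.47.

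Of the 8 Atf4 targets, 3 were called higher and 1 lower in Effector against Acute-7d, and 4 higher and 1 lower against Acute-2d. They are given as metabolic enzymes first and regulators after, an order chosen after the values were seen. *Psat1*, the aminotransferase of serine synthesis, was 3172 and 4645 in Effector, 735 and 1053 in Acute-7d, 880.4 and 867 in Acute-2d, and 1291 and 1309.5 in TDysf. It rose 4.36-fold, or by 2.12 ± 0.24 log2, from Acute-7d (limma adjusted p = 0.016) and by 2.13 from Acute-2d (limma adjusted p = 0.013). *Phgdh*, the first enzyme of that pathway, was 3606 and 6125 in Effector, 1739 and 1841 in Acute-7d, 1726 and 1845 in Acute-2d, and 1489.7 and 1329 in TDysf. It rose by 1.39 ± 0.26 log2 from Acute-7d (limma adjusted p = 0.032) and by 1.40 from Acute-2d (limma adjusted p = 0.030). A *Phgdh* pseudogene in the table, *Phgdh-ps1*, was at most 6.3 in any library.

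*Mthfd2*, the mitochondrial folate enzyme, was 2035 and 2581 in Effector, 701 and 856 in Acute-7d, 806 and 851 in Acute-2d, and 1202 and 1111 in TDysf. It rose by 1.56 ± 0.15 log2 from Acute-7d (limma adjusted p = 0.013) and by 1.47 from Acute-2d (limma adjusted p = 0.012). *Asns*, asparagine synthetase, was 1056 and 1294 in Effector, 562 and 737 in Acute-7d, 578 and 589 in Acute-2d, and 829 and 794 in TDysf. It rose by 1.0 ± 0.16 log2 from Acute-2d (limma adjusted p = 0.023), at the 2-fold limit, and was 0.86 higher than in Acute-7d (limma adjusted p = 0.033), under it. All 4 of these genes were above every other library in both Effector libraries. Without Acute-7d replicate 1 the calls of *Psat1*, *Phgdh* and *Mthfd2* against Acute-7d were lost, as were all the others, with 0 members called.

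The target called lower was *Ppp1r15a*, which encodes Gadd34, which brings a phosphatase to eIF2α and restores translation. Its normalized count was 505 and 446 in Effector, 1173 and 1228 in Acute-7d, 1499 and 2397 in Acute-2d, and 1059 and 1150.3 in TDysf. It fell by 1.34 on the log2 scale from Acute-7d (limma adjusted p = 0.028) and by 1.99 from Acute-2d (limma adjusted p = 0.013) to Effector. *Sesn2*, a leucine sensor that restrains mTORC1, was 371 and 288 in Effector, 845 and 544 in Acute-7d, 580.3 and 501 in Acute-2d, and 766 and 790.0 in TDysf. Its log2 fold change between Effector and Acute-7d was -1.05 ± 0.25 (limma adjusted p = 0.054), and against Acute-2d it was -0.72 (limma adjusted p = 0.12). *Trib3*, a pseudokinase that can inhibit Atf4, was 428 and 713 in Acute-2d and between 200.2 and 401 elsewhere, with -0.60 and -1.33 in Effector against Acute-7d and Acute-2d (limma adjusted p = 0.31 and 0.056). *Chac1*, a glutathione-degrading enzyme, was 129 and 70.2 in Effector and between 30.5 and 60.6 elsewhere, with 0.78 and 1.30 (limma adjusted p = 0.28 and 0.095), and neither gene was called.

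TDysf against Effector compares day 19 of repeated stimulation, with TGF-β1 from day 7, with the day 7 stage. Day of collection, later peptide and TGF-β1 differ together here, so their parts cannot be told apart. In this comparison 2 members were higher (background 4.47%) and 2 lower (background 4.75%), and 10.8% of members stood beside 13.7% of genes with a mean of at least 50. All 4 were Atf4 targets. *Phgdh* fell by 1.74 on the log2 scale (limma adjusted p = 0.017) and *Psat1* by 1.56 (limma adjusted p = 0.020), and *Mthfd2* was at -0.99 ± 0.15 (limma adjusted p = 0.020), just under 2-fold. *Ppp1r15a* rose by 1.21 ± 0.23 log2 (limma adjusted p = 0.031) and *Sesn2* by 1.25 ± 0.25 (limma adjusted p = 0.035). For *Psat1*, TDysf was 0.56 ± 0.24 from Acute-7d (limma adjusted p = 0.23), and for *Ppp1r15a* -0.12 ± 0.23 (limma adjusted p = 0.83). Leaving out either TDysf library left 0 members called, and leaving out Effector replicate 2 left 1.

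At any fold, 10 members differed between TDysf and Effector at an adjusted p under 0.05 (background 15.6%), of which 7 were higher, among them *Ern1*, *Eif2ak3* (0.82 ± 0.10, limma adjusted p = 0.012), *Ddit3*, *Sel1l* and *Dnajc3* (0.63 ± 0.11, limma adjusted p = 0.025), an ER inhibitor of eIF2α kinases. The chaperones had a median of 0.04, with 8 of 15 above 0. Both TDysf libraries were above both Effector libraries in 2 of 15, against 36% of genes, and below both in 3, against 39%. The Effector libraries lay on either side of TDysf, with mean deviations of -0.03 and 0.47 beside 0.28 and 0.31. The median near 0 thus averages 2 unlike libraries and does not show that the conditions were close. The sensors and factors had a median of 0.80 with 6 of 7 above 0, and the Atf4 targets a median of -0.76 with 3 of 8 above 0. The signs of these 3 medians were kept when libraries were rescaled to equal totals or to equal 75th percentiles, the latter with 9 of 15 chaperones above 0.

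Between the rested conditions, 0 members were called higher (background 0.0782%) and 0 lower (background 0.0905%). At an adjusted p under 0.05 at any fold there were also 0, against 0.169% of all genes. limma gave 6 of 37 members an unadjusted p under 0.05, against 7.31% of all genes, a share not matched for level. The median member difference between Acute-7d and Acute-2d was 0.01. *Atf3* had the widest difference, at -1.31 ± 0.47 (limma adjusted p = 0.65).

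Library names set some samples apart. The Effector libraries, like replicate 1 of Acute-7d, have names that begin with RESUB, and what that stands for is not given in the sources used here. In a comparison of Effector with TDysf or Acute-2d, condition and prefix can be told apart only through the difference between the 2 Acute-7d libraries. Within the prefix, Effector minus Acute-7d replicate 1 was 2.38 for *Psat1*, 1.95 for *Sdf2l1*, 1.43 for *Phgdh* and -1.58 for *Dnajb9*. Among libraries without it, TDysf minus Acute-7d replicate 2 was 1.91 for *Sdf2l1*. These log2 differences, which rest on single Acute-7d libraries and have no test, were about as large as those over both.

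The wider pathway was described by 133 other genes in 5 lists. In TDysf against Acute-7d, 2 (1.5%) were called higher and 3 (2.26%) lower, beside 2.54% and 3.03% of all genes. *Trib1*, a relative of *Trib3*, rose by 2.37 ± 0.28 log2 (limma adjusted p = 0.015), with 1719.6 and 2047 in TDysf and 444 and 296 in Acute-7d. *Cnpy2*, an ER luminal protein, rose by 1.07 log2 (limma adjusted p = 0.035). *Stc2*, a secreted glycoprotein induced by stress, fell by 2.86 on the log2 scale (limma adjusted p = 0.011), from 2968 and 2023 to 290.0 and 389. *Vldlr*, a lipoprotein receptor, was 0 and 0.89 in TDysf and 72.5 and 99.97 in Acute-7d, so at least 32.3-fold lower against the 3-read floor. *Mthfd1l*, of mitochondrial folate metabolism, fell by 1.0 log2 (limma adjusted p = 0.049). The median of the 133 was 0.24.

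Against Acute-2d, TDysf had 1 of these 133 higher (*Trib1*, 2.21) and 5 (3.76%) lower, beside 3.14% and 4.21% of all genes. *Vldlr* was at least 338-fold lower, *Stc2* fell by 2.91 log2, *Eif4ebp1*, a repressor of cap-dependent translation, by 1.59, and *Ero1l*, the oxidase that feeds disulfides to the ER, by 1.79 (limma adjusted p = 0.0057). *Ero1l* was 5634 and 7333 in Acute-2d and between 1744 and 3027 elsewhere.

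In Effector against Acute-7d, 6 of the 133 (4.51%) were higher and 4 (3.01%) lower, beside 4.18% and 3.88% of all genes and 7.02% and 5.63% of those with a mean of at least 50. Against Acute-2d 11 (8.27%) were higher and 5 (3.76%) lower, beside 4.31% and 4.48% of all genes and 7.37% and 6.41% of those with a mean of at least 50. *Bcat1*, a branched-chain aminotransferase, rose by 2.96 and 3.35 log2 (limma adjusted p = 0.0080 and 0.0055), with 661 and 941 in Effector and between 69.1 and 138 elsewhere. *Eif2ak2*, the eIF2α kinase that senses double-stranded RNA, rose by 2.03 and 2.22 log2, and *Eif2s1*, eIF2α itself, by 1.25 and 1.19. *Rpn1*, a subunit of the oligosaccharyltransferase, rose by 1.19 and 1.49 log2, and its partner *Stt3a* by 1.14 against Acute-2d. *Ssr2*, a subunit of the translocon-associated complex, rose by 1.01 log2 against Acute-2d, and *Fkbp2*, an ER prolyl isomerase, by 1.16 against Acute-7d (limma adjusted p = 0.0079). *Creb3l2*, an ER-bound transcription factor, fell by 1.55 and 1.38 log2, and *Crebrf*, a regulator of Creb3 factors, by 1.12 and 1.31. *Gars*, glycyl-tRNA synthetase, rose by 1.01 and 1.07 log2, and *Mars1*, methionyl-tRNA synthetase, by 1.19 against Acute-2d. *Stc2* fell by 2.48 and 2.53 log2, and *Ero1l* by 1.79 against Acute-2d. *Vldlr* was called lower in both, with 7.31 and 1.0 in Effector and 795 and 1010.5 in Acute-2d.

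In TDysf against Effector, 4 of the 133 (3.01%) were higher and 5 (3.76%) lower, beside 4.47% and 4.75% of all genes. *Trib1* rose by 2.54 log2, *Crebrf* by 1.54, *Creb3l2* by 1.43 and *Os9*, a lectin of the degradation complex, by 1.08 (limma adjusted p = 0.012). *Bcat1* fell by 2.56 log2, *Mthfd1l* by 1.72 and *Shmt2*, the mitochondrial serine hydroxymethyltransferase, by 1.25 (limma adjusted p = 0.019). *Pdia5*, a disulfide isomerase, fell by 2.46 log2, from 21.0 and 43.1 in Effector to 3.45 and 6.23 in TDysf, near the 3-read floor. *Sec61g*, of the translocon, fell by 1.31 log2. Among the 29 other Atf4 targets, 3 had a log2 fold change above 0, and their median was -0.70. Of the 133, 0 were called between Acute-7d and Acute-2d by limma, with 7 at an unadjusted p under 0.05.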

How the data were processed

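Poly(A) RNA of sorted P14 cells was sequenced by the authors, aligned to mm10 with STAR, quantified to RefSeq transcripts in Partek Flow and normalized by the DESeq2 median ratio; versions of STAR and DESeq2 are not given in the sources used here. The deposited signal values are estimated counts per gene over a size factor (normalized counts). Because 51% to 74.9% of values above 0 and under 1000 reads came out as whole reads (tolerance 0.01 read), no count model was fitted. Values were tested with limma 3.58.1 (R 4.3.3; lmFit, eBayes with trend) on log2(value + 1), with 24303 genes, 8 libraries, 4 group means, no covariate and 4 residual degrees of freedom, two-sided. The procedure was tested on simulated data. Intervals and floors cover counting error or library spread only. Genes were named by rule: all members, and up to 4 called genes per other list, the largest change first. The members and lists were chosen with earlier results of these data known. Promoters and positions came from RefSeq (GRCm38.p6), exon overlaps from GENCODE vM21. Python 3.11.15, pandas 2.3.3 and matplotlib 3.10.9 were used. 1 marker gene, and the list sum that needs it, is not reported here. Alternatives are given with the closing results.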

Additional observations from a re-analysis of the deposited data

How the results depend on the processing

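The main counts of members called were 1, 3, 4, 8, 8 and 0, in TDysf against Acute-7d, Acute-2d and Effector, Effector against Acute-7d and Acute-2d, and Acute-7d against Acute-2d. No call changed direction under any of 19 alternatives. Without a fold threshold the counts were 5, 7 and 10 for the TDysf comparisons. Equal 75th percentiles left 1 in TDysf against Acute-2d. A fit of the 2 groups only left 0 in TDysf against Effector and 0 in both Effector comparisons with the acute conditions. A term for RESUB libraries left 0 in TDysf against Acute-7d, 0 in TDysf against Effector, 4 in Effector against Acute-7d and 0 in Effector against Acute-2d, while all 24 single-gene folds stayed at least 2 and *Sdf2l1* was at 1.91 log2 in the first. An unadjusted p gave 1 (*Atf3*) in Acute-7d against Acute-2d. Leaving out 1 library at a time gave 0 to 1, 0 to 3, 0 to 4, 0 to 12, 2 to 12 and 0 members, where a lone library is assumed to vary like the other groups. Of the 24 single-gene calls, the losses ran from 5 without Effector replicate 1 to 16 without TDysf replicate 2. With the replicate number as a block the counts were 1, 2, 3, 7, 7 and 0. That block ended 5 single-gene calls (*Creld2*, *Ppp1r15a*, *Dnajb9*, and *Phgdh* in 2 comparisons). The numbers were not taken as pairs, since the replicate differences correlated across genes between -0.199 and 0.197 over 6 pairs of conditions, 2 of them over 0.1. Genes called over the whole table in TDysf against Acute-7d were 1353, and 541 with the RESUB term. With 2 libraries per condition, an exact permutation test cannot pass 0.05.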
